A study of Homo sapiens with 12 samples.

Results

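A set of 692 genomic regions carried an H3K27ac peak in both libraries of Panc327 and of SUIT2 and in neither library of BxPC3, out of 58994 regions found in the 3 pancreatic cancer cell lines. Peaks of all 6 H3K27ac libraries on chromosomes 1 to 22 and X that shared at least 1 bp had been merged into regions, and a region is called marked in a line when both libraries of the line had a peak in it. The 692 members were therefore chosen by the presence and absence of called peaks, so their count and their strength in the 4 Panc327 and SUIT2 libraries are descriptions without a test. All 3 are human pancreatic ductal adenocarcinoma cell lines, kept in ordinary culture with no treatment, and the labels name no genetic change made in any of them. Panc327 gave 2 H3K27ac libraries, SUIT2 gave 2 and BxPC3 gave 2, each line with 2 input libraries of the same name, which makes 12 samples. The input libraries have no list of their own. Each line stands for 1 tumour, and the labels do not say whether its libraries came from separate cultures, so any spread given here is a spread between libraries. Comparing 2 libraries with 2 cannot give an exact permutation p under 0.333, and no test between lines was made.

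H3K27ac is the acetylation of lysine 27 of histone H3, which marks active promoters and active enhancers. Broad H3K27ac domains tend to lie at genes of cell identity, while narrow, strong peaks lie at the promoters of genes that most cells use. In pancreatic ductal adenocarcinoma the mark has been used to tell tumours with a differentiated, gut-like programme from those with a squamous or mesenchymal one. A missing peak can have a different origin, since pancreatic tumours often lose whole segments of DNA. BxPC3 is known to carry homozygous deletions that remove SMAD4 and CDKN2A, tumour suppressors of the TGF-beta pathway and of the cell cycle. A peak list has no entry where DNA is lost and none where DNA is present without the mark, so these cannot be told apart from the lists.

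Positions are on hg19, 1-based. No annotation of hg19 was used, so gene names beside positions are background from the known hg19 gene map, not a result. All 31 symbols used for members were on the chromosome of the region in the RefSeq table of GRCh38.p14, from which only names, chromosomes and gene order were taken. Sequence of the regions themselves was not analysed here. For the consecutive genes ME2, ELAC1, SMAD4 and MEX3C on 18q the RefSeq promoters are shown, since each of these genes starts under a member on the gene map. Each runs from 250 bases before to 50 after the gene start (GRCh38.p14; plus strand for ME2, ELAC1 and SMAD4, minus strand for MEX3C). Capitals mark matches on either strand to the NF-Y motif CCAAT, the ETS motif CCGGAAG or the KLF/SP motif GGGNGGG, which may overlap.
ME2: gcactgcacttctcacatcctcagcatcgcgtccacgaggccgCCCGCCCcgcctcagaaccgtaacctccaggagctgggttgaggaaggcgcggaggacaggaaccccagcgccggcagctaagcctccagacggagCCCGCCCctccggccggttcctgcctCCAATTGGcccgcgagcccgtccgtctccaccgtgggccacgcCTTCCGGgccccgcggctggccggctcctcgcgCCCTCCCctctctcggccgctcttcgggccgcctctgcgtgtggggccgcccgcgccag
ELAC1: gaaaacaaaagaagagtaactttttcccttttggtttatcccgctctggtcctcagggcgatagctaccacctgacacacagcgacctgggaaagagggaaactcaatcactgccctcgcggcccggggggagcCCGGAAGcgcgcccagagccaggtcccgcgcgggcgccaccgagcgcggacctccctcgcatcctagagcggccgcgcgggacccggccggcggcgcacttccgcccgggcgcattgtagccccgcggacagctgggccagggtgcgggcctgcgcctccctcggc
SMAD4: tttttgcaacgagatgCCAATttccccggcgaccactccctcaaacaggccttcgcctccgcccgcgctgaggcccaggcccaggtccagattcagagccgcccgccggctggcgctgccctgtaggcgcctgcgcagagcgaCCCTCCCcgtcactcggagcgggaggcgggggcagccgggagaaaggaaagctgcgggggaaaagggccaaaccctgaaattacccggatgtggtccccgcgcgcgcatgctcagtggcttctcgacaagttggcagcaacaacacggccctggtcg
MEX3C: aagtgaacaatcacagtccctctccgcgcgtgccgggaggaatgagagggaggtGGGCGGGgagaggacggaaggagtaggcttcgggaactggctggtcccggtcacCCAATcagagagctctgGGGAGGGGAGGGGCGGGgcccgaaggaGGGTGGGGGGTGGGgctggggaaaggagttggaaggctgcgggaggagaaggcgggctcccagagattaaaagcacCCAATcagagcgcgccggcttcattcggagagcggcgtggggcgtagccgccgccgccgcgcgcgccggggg

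These promoters had 35 CpG dinucleotides in ME2, 33 in ELAC1, 28 in SMAD4 and 27 in MEX3C, against a median of 14 over all 35116 promoters of the table. The share of all promoters with fewer CpG was 85.9% for ME2, 82.8% for ELAC1, 73.8% for SMAD4 and 71.8% for MEX3C. ME2 and MEX3C held 2 CCAAT matches each, SMAD4 held 1 and ELAC1 none, and 34.6% of all promoters held at least 1. The ETS motif was found in ME2 and ELAC1, once each, and in 10.3% of all promoters. KLF/SP matches numbered 3 in ME2, 6 in MEX3C, 1 in SMAD4 and none in ELAC1, against at least 1 in 54.1% of all promoters. A match is a string of letters and not a binding site.

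The promoter of MTAP, on the plus strand of 9p, is shown because MTAP starts under the member with the second most covered bases on average, with the same motifs in capitals.
MTAP: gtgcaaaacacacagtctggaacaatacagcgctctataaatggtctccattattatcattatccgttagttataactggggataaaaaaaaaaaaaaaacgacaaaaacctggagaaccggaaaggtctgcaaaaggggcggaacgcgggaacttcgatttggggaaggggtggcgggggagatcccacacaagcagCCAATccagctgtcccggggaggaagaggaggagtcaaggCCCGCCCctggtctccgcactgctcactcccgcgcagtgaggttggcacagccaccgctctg

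It had 15 CpG dinucleotides, 1 CCAAT match and 1 KLF/SP match. The broadest member lay at the start of MIR31HG, the host transcript of miR-31, whose mature sequence is shown with its seed, bases 2 to 8, in capitals.
hsa-miR-31-5p: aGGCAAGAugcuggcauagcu

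The lists held 27776 and 29139 peaks in Panc327 replicates 1 and 2, 29983 and 31421 in SUIT2, and 34113 and 38335 in BxPC3. Of 13603 regions marked in both Panc327 and SUIT2, the 692 members were 5.09%, and they were 1.6% of the 43240 regions marked in at least 1 line. In the other pairs of lines the shares were higher: 14.8% of the regions marked in BxPC3 and Panc327 had no SUIT2 peak (2252 of 15168), and 14.7% of those marked in BxPC3 and SUIT2 had no Panc327 peak (2468 of 16806). A peak in 1 library of the remaining line was found in 1.4% of the regions marked in Panc327 and SUIT2, in 1.29% of those of Panc327 and BxPC3 and in 9.62% of those of SUIT2 and BxPC3. BxPC3 had the longest lists. The median member was 1744 bp wide, with a range from 466 to 49596 bp, and 51 members spanned at least 5 kb. A member covered a median of 1078.5 and 1089.5 bp in Panc327 replicates 1 and 2 and 1089.5 and 1196.5 bp in SUIT2.

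Members ranked lower in the Panc327 and SUIT2 lists than the regions called in all 6 libraries. The strength of a peak is given here as its percentile by −log10 q within its own list, because fold and −log10 q differ in scale between libraries. The strongest peak of a member stood at a median percentile of 50.3 and 41.4 in Panc327 replicates 1 and 2 and of 41.9 and 44.6 in SUIT2. In the 12721 regions called in all 6 libraries the same medians were 75.6 and 75.2 in Panc327 and 76.6 and 77.6 in SUIT2. Where the authors' values allowed it, the number of reads piled up at each summit was recovered. The lowest of a member's 4 percentiles had a median of 24.4, and 352 of the 692 members were under the 25th percentile in at least 1 list. The median member had 68 and 46 reads in Panc327 replicates 1 and 2 and 71.5 and 76 in SUIT2, against 196, 92, 261 and 278 in those libraries for the regions called in all 6. These differences are partly set by the choice of members, since a region must be called in every list to be in the shared set.

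The share of regions without a BxPC3 peak was lower where Panc327 and SUIT2 were stronger. Regions marked in both lines were split by their lowest percentile over the 4 lists. Of those under the 25th percentile, 352 of 1644 (21.4%) had no BxPC3 peak. Between 25 and 50 it was 248 of 2804 (8.84%), and between 50 and 75 it was 75 of 5148 (1.46%). At or above 75 it was 17 of 4007 (0.424%). Of these 17 members, called strong below, 9 sat in gaps of BxPC3 that held at least 3 members, against 17 of the 352 weakest. The same count was 10 of 42 strong regions missing from SUIT2 and 21 of 41 missing from Panc327, and the difference between the lines was not tested.

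**Figure D1:**
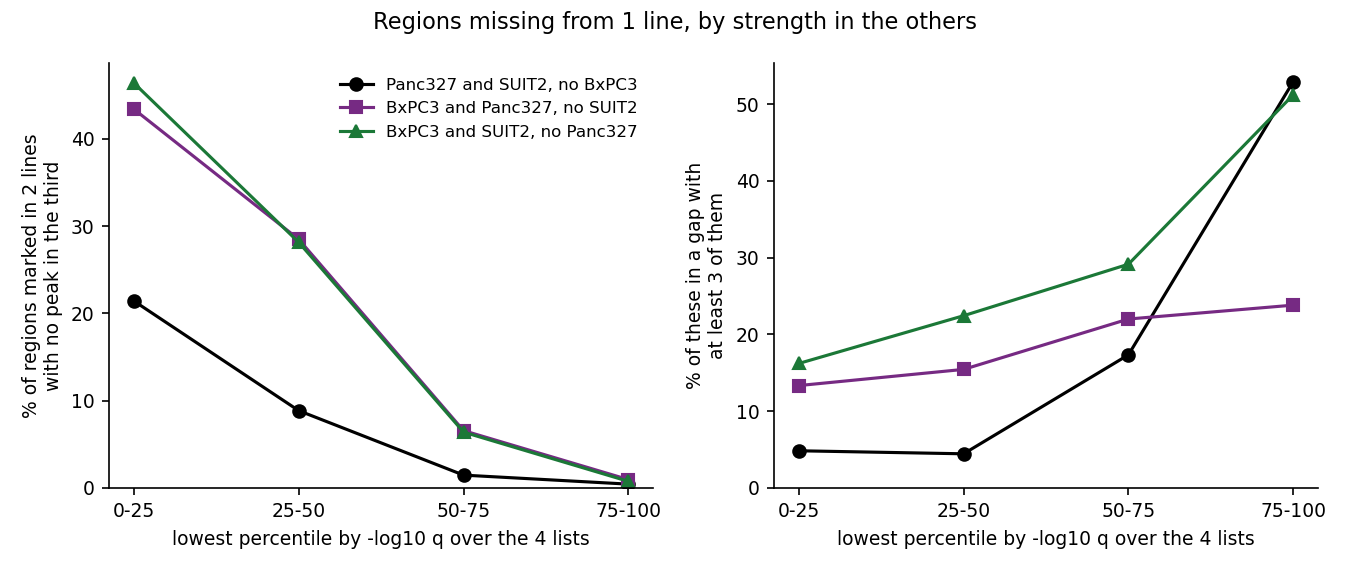
Left, the share of regions marked in 2 lines that had no peak in the remaining line (y, %), by their lowest percentile over the 4 lists (x). Right, the share of those regions that lay in a gap with at least 3 of them. Black circles are the regions of Panc327 and SUIT2 without BxPC3, at 21.4% in the weakest bin and 0.424% in the strongest; in the right panel they stand at 4.83% and 52.9%.

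A gap is the interval between neighbouring BxPC3 peaks of either library, and a stretch is a gap with at least 3 members. There were 10 stretches with 50 members (7.23% of all), 80 members shared a gap with 1 other, and 562 were alone. Members in stretches were broader and stronger than the members alone in a gap, with a median width of 2604 against 1672 bp and a median lowest percentile of 47.1 against 23.5. Their median summit pile-ups were 108.5 and 68 reads in Panc327 replicates 1 and 2 and 129.5 and 144 in SUIT2, against 67 and 44 and 66 and 72.5 for members alone. The median gap, taken over members, was 672 kb for members in stretches and 94.7 kb for those alone. This difference is partly set by the definition, since a gap must have room for at least 3 members to be a stretch. Stretches numbered 96 for regions missing from SUIT2 (15.7% of them) and 129 for regions missing from Panc327 (21.03%). Those classes are larger, and a larger class can fill a gap by number alone.

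**Figure D2:**
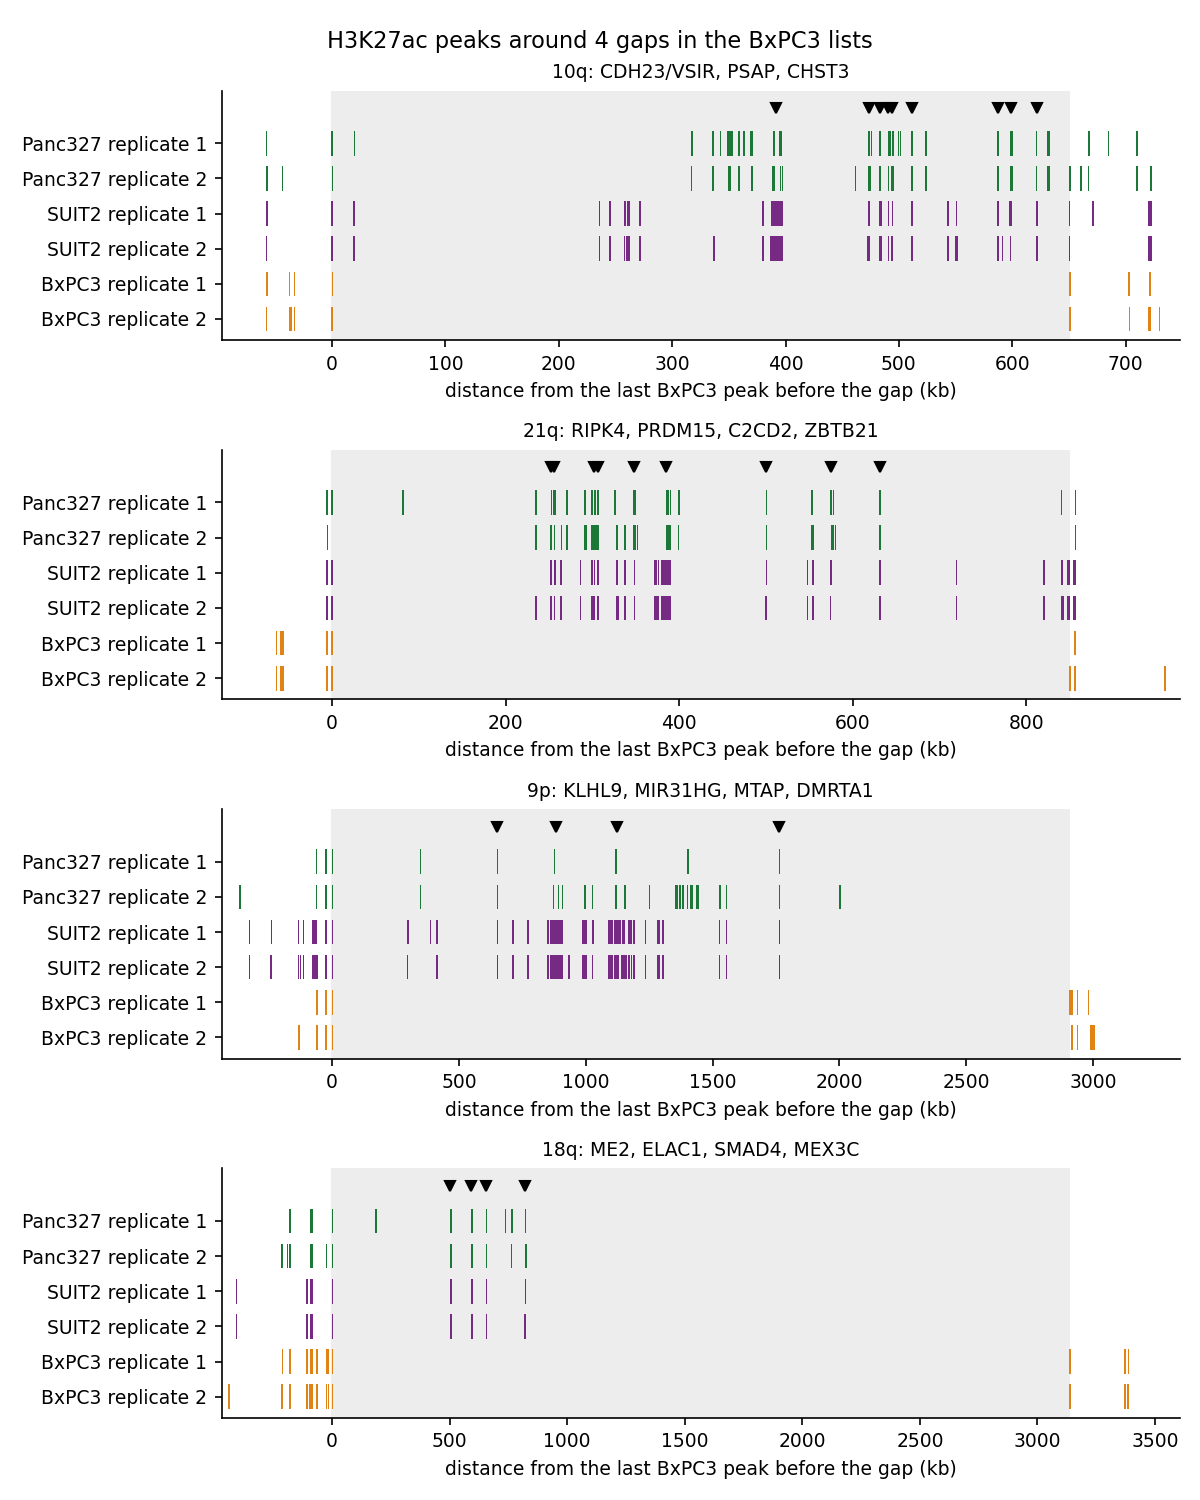
Peaks of the 6 libraries (rows) in 4 stretches and their flanks, by distance from the last BxPC3 peak before the gap (x, kb). Bars are called peaks, drawn at a minimum width to be visible, grey is the gap without BxPC3 peaks, and triangles are the members, 9 in the 10q and 21q panels and 4 in the 9p and 18q panels.

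The stretch on 18q held the starts of 4 consecutive protein-coding genes and no other SUIT2 peak lay in it. SMAD4 carries TGF-beta signals to the nucleus, ME2 is a mitochondrial malic enzyme, ELAC1 an enzyme that processes transfer RNAs and MEX3C an RNA-binding ubiquitin ligase. The gap ran from 47902323 to 51037213 on chromosome 18, a length of 3.13 Mb, with 4 peaks in each SUIT2 library and 9 and 6 in Panc327 replicates 1 and 2. The SMAD4 member (48555536 to 48558044) had a fold over background of 133 and 26.2 in Panc327 replicates 1 and 2 and of 62.2 and 62.7 in SUIT2, and it was 653 kb from the nearest BxPC3 peak. Folds are the authors' values, and over all members their median was 23.2 and 9.57 in Panc327 and 15.1 and 15.6 in SUIT2. The SMAD4 peak ranked at percentiles 91.2 and 84.2 in Panc327 and 78.3 and 79.5 in SUIT2. MEX3C (48720364 to 48725342) stood at percentiles 89.9, 77.5, 75.7 and 78.1 in the same order of libraries, ELAC1 (48493876 to 48495505) at 85.5, 74.6, 75.6 and 78.4, and ME2 (48404328 to 48407047) at 84.3, 72.1, 66.8 and 64.7. In every Panc327 and SUIT2 list these 4 promoters ranked at or above percentile 64.7. The local background under them, relative to the lowest of its list, was 1.00 to 1.70 in Panc327 and 1.00 in SUIT2.

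The stretch on 9p held the broadest member, which was also the one with the highest lowest percentile over the 4 lists. The gap ran from 20685209 to 23590715 on chromosome 9 (2.91 Mb), which takes in the CDKN2A locus on the gene map. No member lay between 21817649 and 22446674, where that locus lies. Of the 51 regions in the gap, 4 were members. A further 21 were marked in SUIT2 with no Panc327 peak, and 2 in Panc327 with no SUIT2 peak. Peaks in the gap numbered 6 and 26 in Panc327 replicates 1 and 2 and 34 and 38 in SUIT2. The member at MIR31HG (21544595 to 21594190) covered 1823 and 12996 bp in Panc327 replicates 1 and 2, against 49320 and 48730 bp in SUIT2. Its fold was 140 and 29.6 in Panc327 and 152 and 167 in SUIT2, the last 2 being the highest SUIT2 folds of any member. Its percentiles were 93.4 and 89.5 in Panc327 and 99.7 in both SUIT2 libraries. It was a narrow peak in Panc327 replicate 1 and a domain in SUIT2. MTAP, an enzyme of methionine salvage that is often deleted with CDKN2A, had a member at 21799786 to 21817649, which covered 1808 and 3086 bp in Panc327 and 17032 and 17718 bp in SUIT2. The promoters of KLHL9, a substrate adaptor of a ubiquitin ligase, and DMRTA1, of the DMRT family of transcription factors, were narrower. KLHL9 (21334007 to 21335998) had 238 and 98 reads at its summit in Panc327 replicates 1 and 2 and 484 and 548 in SUIT2. DMRTA1 (22446674 to 22449949) had 209 and 85 reads in Panc327 and 243 and 283 in SUIT2. The 4 members lay 649 to 1141 kb from the nearest BxPC3 peak, and their relative background was 1.00 to 1.74.

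On 10q a gap of 650 kb (73137276 to 73787560) held 9 members. The one with the highest lowest percentile lay at the start of PSAP, which encodes prosaposin, the precursor of lysosomal activator proteins and a gene that most cells use. It spanned 73609583 to 73612856, with 337 and 149 reads in Panc327 replicates 1 and 2 and 528 and 564 reads in SUIT2, at percentiles 88.4, 95.8, 96.3 and 97.0. Its relative background was 2.04 and 1.39 in Panc327 and 1.26 and 1.00 in SUIT2, and the part of that background in these ranks was not tested. The first member, 73523515 to 73534828, lay within CDH23, a cadherin gene, at the start of VSIR, an immune checkpoint receptor. It covered 4305 and 4340 bp in Panc327 and 10626 and 11262 bp in SUIT2. Between PSAP and CHST3 lay 4 members with lowest percentiles from 1.32 to 52.1. The CHST3 member (73723449 to 73726028), at a sulfotransferase of chondroitin sulfate, had 334 and 117 reads in Panc327 and 170 and 146 reads in SUIT2. It was the only member of the 3 at gene starts here that ranked higher in both Panc327 lists, at 89.1 and 88.9, than in SUIT2, at 65.1 and 60.1.

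A second gap on 10q, 73947248 to 74031512 (84.3 kb), held 5 members. The first, 73974384 to 73977805, lay at the shared start of ASCC1, of the activating signal cointegrator complex, and ANAPC16, a subunit of the anaphase-promoting complex. It had 269 and 119 reads in Panc327 replicates 1 and 2 and 481 and 495 in SUIT2. The other 4 lay between 74002773 and 74025093, on the side of DDIT4, the next protein-coding gene after ANAPC16 and a target of the integrated stress response that inhibits mTORC1. Of these, the member at 74019524 to 74022205 was the strongest in Panc327, at percentiles 75.2 and 94.0, and stood at 64.0 and 66.7 in SUIT2. The gap ends at 74031512, where a BxPC3 peak begins, 6.42 kb after the last of these members.

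Chromosome 21 held 14 of its 24 members in 2 stretches. The larger gap, 42798796 to 43648468 (850 kb), held 9 members, among them the starts of the consecutive genes RIPK4, PRDM15, C2CD2 and ZBTB21. RIPK4, a kinase needed for differentiation of stratified epithelia, had the member with the third most covered bases on average (43177499 to 43189753), which covered 3156 and 4503 bp in Panc327 replicates 1 and 2 and 12224 and 12125 bp in SUIT2. PRDM15 and ZBTB21, zinc finger genes, had narrow and strong peaks. PRDM15 (43298291 to 43300246) had 252 and 93 reads in Panc327 and 327 and 367 in SUIT2, and ZBTB21 (43428916 to 43431572) had 321 and 102 in Panc327 and 296 and 348 in SUIT2. C2CD2 (43372560 to 43374664) had 143 and 57 reads in Panc327 and 143 and 147 in SUIT2. The other 5 members of this gap lay before RIPK4, with lowest percentiles from 21.1 to 56.6.

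The second gap of chromosome 21, 46975925 to 47647741 (672 kb), was weaker, and none of its 5 members was strong. It included the starts of COL6A1 and COL6A2, which encode chains of collagen VI, a matrix protein typical of mesenchymal cells. COL6A1 (47401645 to 47403190) had 91 and 35 reads in Panc327 replicates 1 and 2 and 122 and 113 in SUIT2. COL6A2 (47517203 to 47519042) had 71 and 31 reads in Panc327 and 27 and 32 in SUIT2, at SUIT2 percentiles of 7.62 and 15.7. COL6A1 stood higher in the SUIT2 lists, at 52.6 and 54.9.

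The remaining 4 stretches held 14 members, none of them strong. On chromosome 2 a gap of 5.31 Mb held 4 members, at the starts of CMPK2, RNF144A and ID2 and just behind ID2. ID2 encodes an inhibitor of basic helix-loop-helix transcription factors, and its member (8816542 to 8823445) had 272 and 91 reads in Panc327 replicates 1 and 2 and 439 and 449 in SUIT2. It ranked at percentiles 84.5 and 64.0 in Panc327 and 92.9 and 92.5 in SUIT2, and its relative background in Panc327 was 1.41 and 2.65. On chromosome 11 a gap of 388 kb held 3 members, the first at DKK3 (12029231 to 12031858), a secreted protein of the Dickkopf family, with 161 and 56 reads in Panc327 and 29 and 34 in SUIT2. On chromosome 16 a gap of 73.9 kb held 4 members with lowest percentiles from 4.09 to 17.3. On chromosome 19 a gap of 44.2 kb held 3 members whose relative background was 4.05 to 5.77 in Panc327 and 1.00 to 1.102 in SUIT2. The part of that raised background in these calls was not tested.

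The 10 members with the most covered bases included those at LHX1 and PAX6, which lay outside stretches. The nearest BxPC3 peak was 7.97 kb from the LHX1 member, in a gap of 24.3 kb, and 270 kb from the PAX6 member. Reads are not scaled to the depth of a library, which is unknown, so percentiles and not reads compare the lines. The member at LHX1, a LIM-homeobox factor, covered 6538 and 4644 bp in Panc327 replicates 1 and 2 and 7413 and 7479 bp in SUIT2. It stood at percentiles 58.2 and 36.3 in Panc327 and 91.3 and 91.1 in SUIT2 (chromosome 17, 35289325 to 35297636). Its relative background was 2.02 and 1.86 in Panc327 and 1.31 and 1.14 in SUIT2, and the part of that background in these ranks was not tested. PAX6, a paired-box factor of eye, brain and pancreatic islets, was broader in Panc327: its member on chromosome 11, 31829582 to 31840125, covered 8528 and 9489 bp in Panc327 and 3946 and 3890 bp in SUIT2. Its percentiles were 77.2 and 70.9 in Panc327 and 73.0 and 77.0 in SUIT2, so the lines overlapped in strength.

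Among the other members named by covered bases or lowest percentile were PKDCC, ADGRL2, RASGRF2 and CHST11. PKDCC, a secreted protein kinase, stood at percentiles 51.2 and 31.2 in Panc327 replicates 1 and 2 and 98.5 and 98.8 in SUIT2 (chromosome 2, 42273786 to 42288843). It was called over its full 15058 bp in SUIT2 replicate 1 and over 454 bp in Panc327 replicate 2. Its relative background was 2.38 and 1.73 in Panc327 replicates 1 and 2 and 1.21 and 1.00 in SUIT2. The part of that background in these ranks was not tested. ADGRL2, an adhesion receptor on chromosome 1 (82264458 to 82272572), had 298 and 98 reads in Panc327 and 290 and 318 in SUIT2, in a gap of 1395 kb with no other member. RASGRF2, an exchange factor of Ras and Rac (chromosome 5, 80255660 to 80264845), had 204 and 81 reads in Panc327 and 305 and 314 in SUIT2. CHST11, a chondroitin sulfotransferase (chromosome 12, 104849720 to 104854351), had 351 and 124 reads in Panc327 and 345 and 362 in SUIT2, at percentiles between 85.4 and 93.0. These 3 members lay 95.2, 304 and 165 kb from the nearest BxPC3 peak, and the PKDCC member lay 39.8 kb from one.

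Strong members also occurred next to BxPC3 peaks. IGFBP7, a secreted binding protein of insulin-like growth factors, had a member on chromosome 4 (57970083 to 57978923) with 528 and 171 reads in Panc327 replicates 1 and 2 and 361 and 410 in SUIT2. It was 6.37 kb from the nearest BxPC3 peak, and its relative background in Panc327 was 1.82 and 3.82. The member on chromosome 19 at 56158663 to 56160556 was 2.59 kb from a BxPC3 peak and had folds of 119 and 18.6 in Panc327 and 68.5 and 45.0 in SUIT2. The member on chromosome 15 at 101388720 to 101392586 was 25.5 kb from one, with folds of 95.4 and 24.5 in Panc327 and 81.1 and 78.5 in SUIT2. Long gaps were therefore not a feature of all strong members: 10 of the 17 lay in gaps of at least 500 kb and 7 in shorter ones. Among all members with a BxPC3 peak on either side, 102 of 686 (14.9%) lay in gaps of at least 500 kb.

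**Figure D3:**
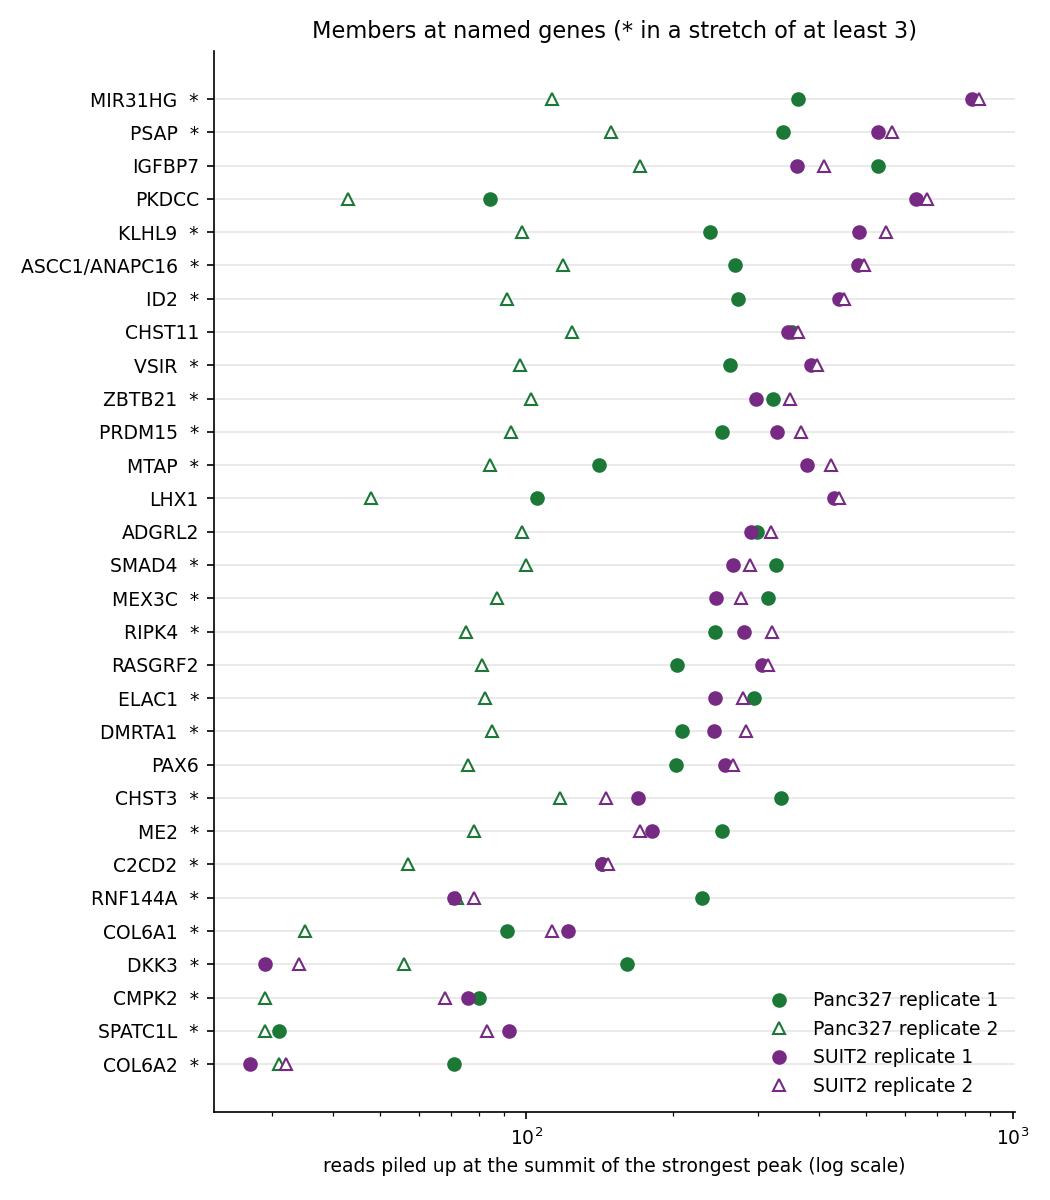
Reads piled up at the summit of the strongest peak (x, log scale) for the 30 members at named genes, ordered by their mean, in Panc327 replicates 1 and 2 and SUIT2 replicates 1 and 2. MIR31HG has the most reads, 826 and 852 in SUIT2, and COL6A2 the fewest in SUIT2, 27 and 32. Reads are not scaled to depth, so points of different libraries do not compare the lines.

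Neither line was the stronger at most members. In 238 members (34.4%) both Panc327 percentiles were above both SUIT2 percentiles, in 211 (30.5%) both SUIT2 percentiles were above, and in 243 they overlapped. By covered bases, 205 members were broader in both Panc327 libraries, 279 in both SUIT2 libraries, and 208 overlapped. Across the 692 members, Spearman's rho of −log10 q was 0.963 between the SUIT2 libraries and 0.5999 between the Panc327 libraries, and 0.244 to 0.261 between libraries of different lines. These are correlations across regions that share libraries, given as a description. The strongest summits lay a median of 119.5 to 145 bp apart between lines, 118.5 bp between the Panc327 libraries and 51 bp between the SUIT2 libraries. Between 58.2 and 61.0% of the members had summits within 200 bp between lines, against 66.0% within Panc327 and 86.0% within SUIT2.

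**Figure D4:**
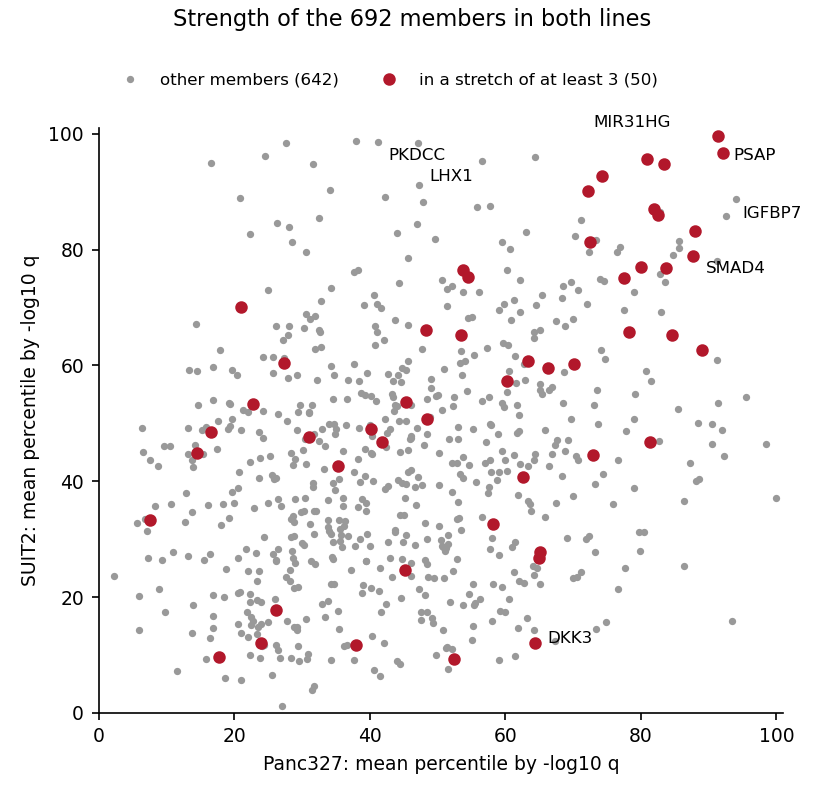
Mean percentile by −log10 q in Panc327 (x) and in SUIT2 (y) for the 692 members, with the 50 members of stretches in red. Named members show the range, from PSAP and MIR31HG near the top of both lines to PKDCC and LHX1, higher in SUIT2, and DKK3, higher in Panc327.

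The member that ranked highest in Panc327 lay on chromosome 19, 38209366 to 38211162, with folds of 167 and 35.5 in Panc327 replicates 1 and 2, the highest of any member in both lists. Its percentiles were 99.9 in both Panc327 lists and 33.6 and 40.6 in SUIT2, with a relative background of 3.77 in Panc327 replicate 2. It was picked after its values were seen. In single lists, a relative background over 2 was found at 15.6% and 15.03% of the members in Panc327 replicates 1 and 2. In the 12721 regions called in all 6 libraries these shares were 14.4% and 18.6%. In SUIT2 replicates 1 and 2 they were 2.31% and 1.88% of the members, against 3.16% and 1.604% of those regions. A relative background over 2 in both libraries of a line was found at 37 members (5.35%) in Panc327 and at 4 in SUIT2. Of the 37, 9 (24.3%) were on chromosome 19, which held 7.66% of all members. Without the members raised in both libraries of a line 654 were left, of which 47 were in stretches. The 3 stretch members left out were those on chromosome 19.

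Distances to the nearest BxPC3 peak spread widely. Their median was 22.5 kb, with quartiles of 7.22 and 64.2 kb and a range from 136 bp to 1971 kb, and 131 members (18.9%) lay within 5 kb. For the other classes the median distance to the nearest peak of the missing line was 17.5 kb for regions without a SUIT2 peak and 25.2 kb for regions without a Panc327 peak. Gaps of at least 500 kb held 102 of the 686 members that have a BxPC3 peak on either side (14.9%), against 10.9% of the regions without SUIT2 and 24.4% of those without Panc327. These shares also depend on how many peaks the missing line has.

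The edge of the rule was set by weak peaks, also at regions with high values in other lists. The member with the lowest percentile, on chromosome 17 at 7117409 to 7118345, had −log10 q values of 39.1 and 22.6 in Panc327 replicates 1 and 2 and of 15.5 and 8.42 in SUIT2. The next, on chromosome 9 at 139538602 to 139541407, had 58.8, 8.57, 15.5 and 30.6 in the same order. The next 3 had lowest percentiles from 0.128 to 0.644. Just outside the rule, 190 regions marked in Panc327 and SUIT2 had a peak in 1 BxPC3 library, 31 in replicate 1 and 159 in replicate 2. The median −log10 q of that peak was 16.7. The lowest, on chromosome 6 at 151378852 to 151382942, had 9.14 in BxPC3 replicate 2, and 14.8, 30.3, 214 and 182 in the Panc327 and SUIT2 libraries. Among the next lowest, the region on chromosome 19 at 55591258 to 55592998 had 9.79 in BxPC3 replicate 2. It had 307, 147, 373 and 380 in the Panc327 and SUIT2 libraries. A further 822 regions without a BxPC3 peak missed the rule by 1 Panc327 or SUIT2 library, 342 by Panc327 replicate 1 and 362 by Panc327 replicate 2, 84 by SUIT2 replicate 1 and 34 by SUIT2 replicate 2. Most of these near misses thus lacked a peak in 1 Panc327 library and had a peak in the other.

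The share of regions marked in Panc327 and SUIT2 that lacked a BxPC3 peak differed between chromosomes, and stretches made up part of the difference. On chromosome 21 it was 16.6% (24 of 145), and the 10 members outside stretches were 6.90% of the 145. On chromosome 10 it was 6.90% (40 of 580), and the 26 members outside stretches were 4.48% of the 580. On chromosome 18 it was 4.81% (9 of 187), under the 5.09% over all chromosomes, and 4 of the 9 were the members of the SMAD4 stretch. Chromosome 22, with 36 of 390 (9.23%), and chromosome 17, with 74 of 916 (8.08%), had no stretch, so no gap on them held 3 members. On chromosome 17 the broadest named member was that at LHX1. The lowest share was on X, with 7 of 352 (1.99%), and chromosome 8 had 14 of 455 (3.08%). Neighbouring regions are not independent, so no test was made over regions.

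**Figure D5:**
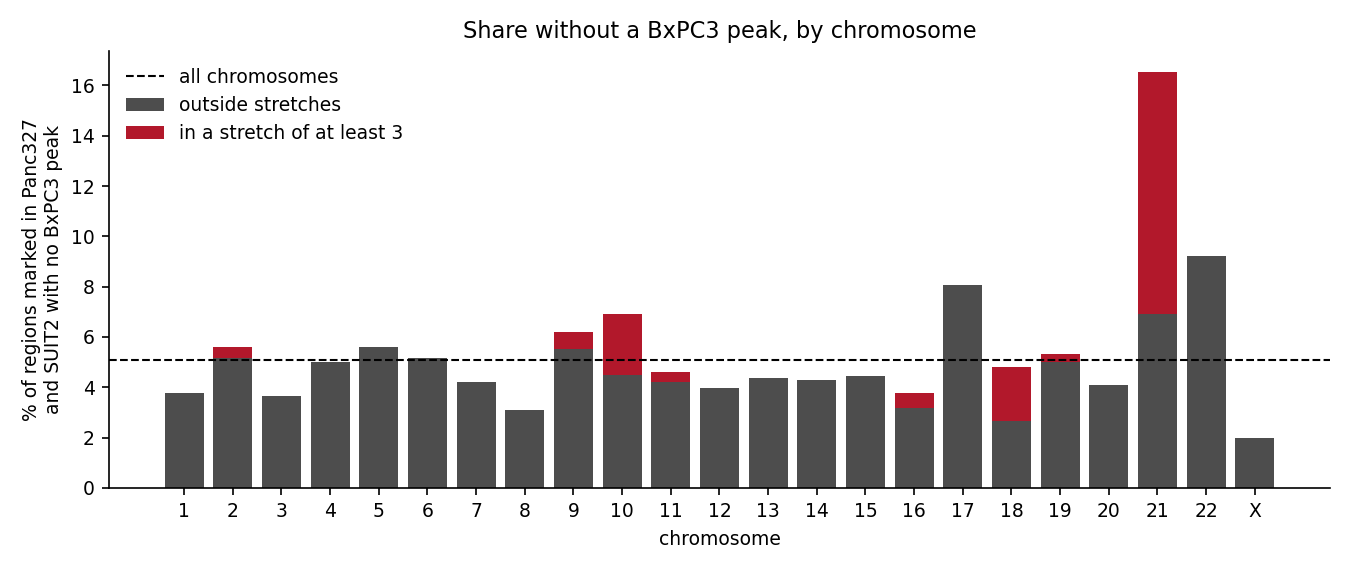
Share of the regions marked in Panc327 and SUIT2 that had no BxPC3 peak (y, %), by chromosome (x), with members in stretches in red on top of the others in grey. The dashed line is the share over all chromosomes, 5.09%, and chromosome 21 stands highest at 16.6%, of which 6.90% lies outside stretches.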

How the data were processed

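The tools named in the submitters' processing notes are MACS2, Bowtie 1.1.1 and bcl2fastq 1.8.4, and the genome build is hg19. Settings and the version of MACS2 are not given in the sources used here. The authors deposited 1 list per library, so each H3K27ac library had peaks called alone. Fold, as deposited, is a ratio of reads at the summit over the expected background, and the deposited −log10 p and −log10 q are the authors' values for each peak, with a lowest −log10 p of 10.0 in the lists. The deposited score was not used, and the summit position served to compare summits. Up to 3 peaks of a list, outside chromosomes 1 to 22 and X, were left out.

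Peaks that shared at least 1 bp were merged. By the usual MACS2 formulas, fold is the ratio of pile-up and background after adding 1 to each, and p is a Poisson tail. Whole read numbers that solve both explained 99.9 to 100% of the peaks of each Panc327 and SUIT2 list within 0.001 of the −log10 p. They did not for BxPC3, where no pile-up is given. Depth per library is otherwise unknown. Background is given relative to the lowest background of the list. Merging and recovery were run on simulated data, made with the same formulas, without added noise and with regions that never touched. That run checks the code and cannot show how well the formulas suit the deposited lists.

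The members, lists and stretches were chosen with earlier results of these data known. Named were the 10 members with the most covered bases, the 10 with the highest lowest percentile, the stretches with the most members (4, because of a tie) and the edges of the rule, and 1 of these members is not reported here. The stretches on 9p and 18q and the others were added after their values were seen, as were the strong members and the 500 kb limit. Planned counts near transcript starts, gene lists and motif searches in regions need hg19 and were not made. Figures were drawn with matplotlib 3.10.9, and scipy 1.17.1, pandas 2.3.3 and numpy 2.4.6 ran under Python 3.11.15.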

Additional observations from a re-analysis of the deposited data

How the results depend on the processing

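No paired analysis was possible because the results come from overlap counts and not from a test. The 692 members became 226 if each peak must span 50% or more of its region and 424 with a −log10 q of at least 20 in the Panc327 and SUIT2 lists only. Leaving out 1 library gave 723 to 1057 members, the highest without Panc327 replicate 2. The other 4 alternatives gave 561 to 884. The 10 stretches became 50 with at least 2 members and 4 with at least 5, and 11 to 17 without 1 library, with 17 without Panc327 replicate 1. Relative to its share of all marked regions, chromosome 17 held 2.13 times as many members, and 1.60 to 2.31 times without 1 library. Chromosome 19 held 1.61 times as many, 1.23 to 1.66 times without 1 library, and 1.20 times against regions called in at least 4 libraries. Chromosome 21 held 2.93 times as many, and 2.15 to 3.32 times over the 8 alternatives run. Chromosome 22 held 2.27 times as many, and 1.92 to 2.41 times over the same alternatives. Of the regions marked in Panc327 and SUIT2 on chromosome 19, 5.32% (53 of 997) had no BxPC3 peak, against 5.09% over all chromosomes. By that measure chromosome 19 was near the whole. The 17 strong members numbered 17 to 22 without 1 library, and those in stretches 9 to 12; these counts were added after seeing the data. Leaving out a library raises counts in part by construction. Members at transcript starts, gene lists and motif shares in regions were not run. Weak peaks limit the absence calls: a region under the BxPC3 threshold counts as having no peak.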
